A study of Mus musculus with 4 samples.

Results

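Genes whose mouse symbol is Gm followed by a number, or ends in Rik, are named by placeholder: Gm symbols are given to predicted gene models and Rik symbols to transcripts first seen as RIKEN cDNA clones. Sites of N6-methyladenosine (m6A) called by GLORI in such genes were taken from the deposited tables by symbol alone. They numbered 760 positions in 574 genes, 459 Gm and 115 Rik, out of 25595 positions in all and 10.4% of the 5526 gene names listed. The other named genes held 9838 positions in 4952 genes, and 14997 positions lay outside named genes. In RefSeq's mouse annotation of another build (GRCm38.p6), 571 of the 574 symbols were matched, to 316 long non-coding RNAs (lncRNAs), 121 pseudogenes, 76 protein-coding genes, 54 small RNAs (snRNAs, snoRNAs and guide RNAs) and 4 genes of other classes. Of the other named genes, 95.6% were protein-coding.

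m6A is laid down on messenger RNA and lncRNA by a methyltransferase complex that favours adenosine followed by cytosine, with GAC preferred over AAC. A lncRNA is transcribed and often spliced like a messenger RNA but codes for no protein. A pseudogene is a copy of a gene, and its reads can be hard to tell from those of the parent gene. snRNAs take part in splicing and snoRNAs guide chemical changes of other RNAs, and both are short and structured. Because several of these classes exist in near-identical copies, the assignment of a site to 1 Gm locus is uncertain for pseudogenes and small RNAs.

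All 4 libraries came from cortex of tamoxifen-treated mice of the genotype APOBEC1-YTH, a cytidine deaminase fused to an m6A-binding domain; no library without this transgene was analysed here, and the labels do not say what drives it or how many animals each library holds. Tamoxifen at 20 mg/kg was begun at an age of 10 weeks and given at intervals of 24 hours over 5 days, and cells were sorted 7 days after the last dose. Astrocytes were sorted by ACSA2 and microglia by CD11b, with 2 libraries each. GLORI deaminates unmethylated adenosine, so the level of a site is the percent of reads that keep A; read depth is unknown.

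The cell type markers went against the labels of both replicate 2 libraries. Of 18 astrocyte markers, the number with a site was 16 for astrocyte 1 and 13 for the library labelled microglia 2, but 1 for the library labelled astrocyte 2 and 0 for microglia 1. Of 18 microglia markers it was 14 for astrocyte 2 and 13 for microglia 1, but 2 for astrocyte 1 and 0 for microglia 2. Oligodendrocyte markers had sites in 7 of 8 genes in astrocyte 1 and in microglia 2 and in 0 of 8 in the others. Neuron markers had sites in at most 2 of 8 genes and endothelial and mural markers in at most 3 of 7 in any library. The libraries listed 6343 to 12687 sites. Labels are used below as deposited, and comparisons of Gm and Rik genes with other genes were made within each library, where a label plays no part. Sharing alone also drew on the sites listed in the other libraries.

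Gm and Rik genes held 346 of 4790 sites in named genes in astrocyte 1 (7.22%, exact 95% binomial interval 6.51 to 7.99%), 181 of 2348 in astrocyte 2 (7.71%, 6.66 to 8.86%), 230 of 1066 in microglia 1 (21.6%, 19.1 to 24.2%) and 235 of 3782 in microglia 2 (6.21%, 5.47 to 7.03%). These intervals cover the counting of sites only. Microglia 1 stood apart from the other libraries, which did not differ by more than 1.5 points. It was the library with the fewest sites in named genes, while its number of Gm and Rik sites lay between those of the others. Of its Gm and Rik sites 69.1% were in lncRNAs, against 41.4% to 58.1% in the other libraries.

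Sites in Gm and Rik genes stood at full level, 100% of reads, more often than sites in other named genes in every library. The share was 46.0% against 25.9% in astrocyte 1, 44.8% against 37.3% in astrocyte 2, 75.7% against 56.1% in microglia 1 and 34.5% against 14.0% in microglia 2. The mean difference was 16.9 points ± 6.3 (SD, n = 4 libraries), with an exact two-sided sign-flip permutation p = 0.13 over the libraries. That is the smallest p that 4 libraries allow, and it became 0.15 after Benjamini-Hochberg adjustment over the 6 measures compared in this way. No measure can therefore pass 0.05 here, and the direction in each library is what the data give. Sites outside named genes stood higher still, at 73.0% to 89.4%.

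The mean level differed less. It was 73.8% against 66.0% in astrocyte 1, 88.2% against 81.0% in microglia 1 and 66.1% against 59.2% in microglia 2, but 71.4% against 72.5% in astrocyte 2. The mean difference of 5.21 points ± 4.3 (SD, n = 4 libraries) had an exact sign-flip permutation p = 0.25 (adjusted 0.25). Without snRNA and snoRNA genes the mean difference was 9.31 points, and with levels of at least 20% alone it was 8.22 points, each higher in 4 of 4 libraries. In lncRNAs it was 29.8 points, which was not computed with 1 value per gene. Among sites below full level the direction turned, and Gm and Rik sites stood 5.0 points lower on average than those of other named genes. With all classes together, levels in Gm and Rik genes were thus spread toward both ends, with more sites at 100% and lower values among the rest. Small RNAs, with median levels of 17.7% to 20.2% in the libraries, were mostly among the rest. The comparison below full level was not run without them, so the lower values cannot be given to the other classes.

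The letters around the methylated base also differed. Every site listed had the 3-mer GAC or AAC, and GAC made up 54.0% of Gm and Rik sites against 68.7% of other named-gene sites in astrocyte 1, 59.7% against 65.5% in astrocyte 2, 41.3% against 61.1% in microglia 1 and 57.9% against 70.1% in microglia 2. AAC was therefore the commoner 3-mer of these genes in microglia 1 alone. The mean difference in GAC was -13.1 points ± 5.8 (SD, n = 4 libraries; exact sign-flip permutation p = 0.13, adjusted 0.15). Outside named genes GAC stood at 39.1% to 44.1%. Among sites at full level the mean difference was -14.2 points, with GAC lower in 4 of 4 libraries. Among sites below full level it was -12.7 points, with astrocyte 2 going the other way (66.0% against 64.7%) and microglia 1 farthest apart (41.1% against 70.8%). It turned to 6.32 points higher when pseudogenes alone were compared, where other named genes had 5 to 21 sites a library.

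The tables write some 3-mers in lower case, the usual mark of repeat-derived (soft-masked) sequence. The central A was in lower case at 26.0%, 24.3%, 35.2% and 24.3% of Gm and Rik sites in astrocyte 1, astrocyte 2, microglia 1 and microglia 2, against 3.49%, 4.34%, 5.02% and 2.82% of other named-gene sites. The exact 95% intervals did not overlap in any library, and the difference was 23.5 points ± 4.6 on average (SD, n = 4 libraries; exact sign-flip permutation p = 0.13, adjusted 0.15). By class the mean difference was 11.8 points in protein-coding genes, higher in 4 of 4 libraries, and -1.47 points in pseudogenes, where microglia 1 went the other way (40.0% against 60.0% of 5 sites). Outside named genes the share was 34.0% to 35.4%, so that microglia 1 alone reached it in its Gm and Rik genes. Leaving out all lower-case sites kept the difference in full level at 18.7 points.

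Gm and Rik sites were also listed in a second library more often. The share of sites found in at least 1 other library was 36.7% against 16.2% in astrocyte 1, 30.9% against 15% in astrocyte 2, 42.6% against 40.0% in microglia 1 and 41.3% against 18.7% in microglia 2. In microglia 1 the exact 95% intervals overlapped, at 36.1 to 49.3% and 36.6 to 43.4%. The mean difference was 15.4 points ± 9.0 (SD, n = 4 libraries; exact sign-flip permutation p = 0.13, adjusted 0.15). A position shared between libraries counts in each of them, so these 4 differences are not independent, which this p does not allow for. Among sites below full level the mean difference was 11.3 points, higher in 4 of 4 libraries. In other subsets microglia 1 went the other way. There the share was 42.5% against 47.8% among sites at full level, where the mean difference over the libraries was 20.2 points. It was 38.3% against 39.7% in upper-case sequence (mean difference 9.29 points) and 25.0% against 38.4% in protein-coding genes (mean difference 2.75 points). In lncRNAs it was 42.8% against 44.4% of 18 sites (mean difference 9.76 points). With Rik names only it was 38.5% against 40.0% (mean difference 9.83 points), and at AAC sites 40.0% against 42.5% (mean difference 19.4 points).

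**Figure D1:**
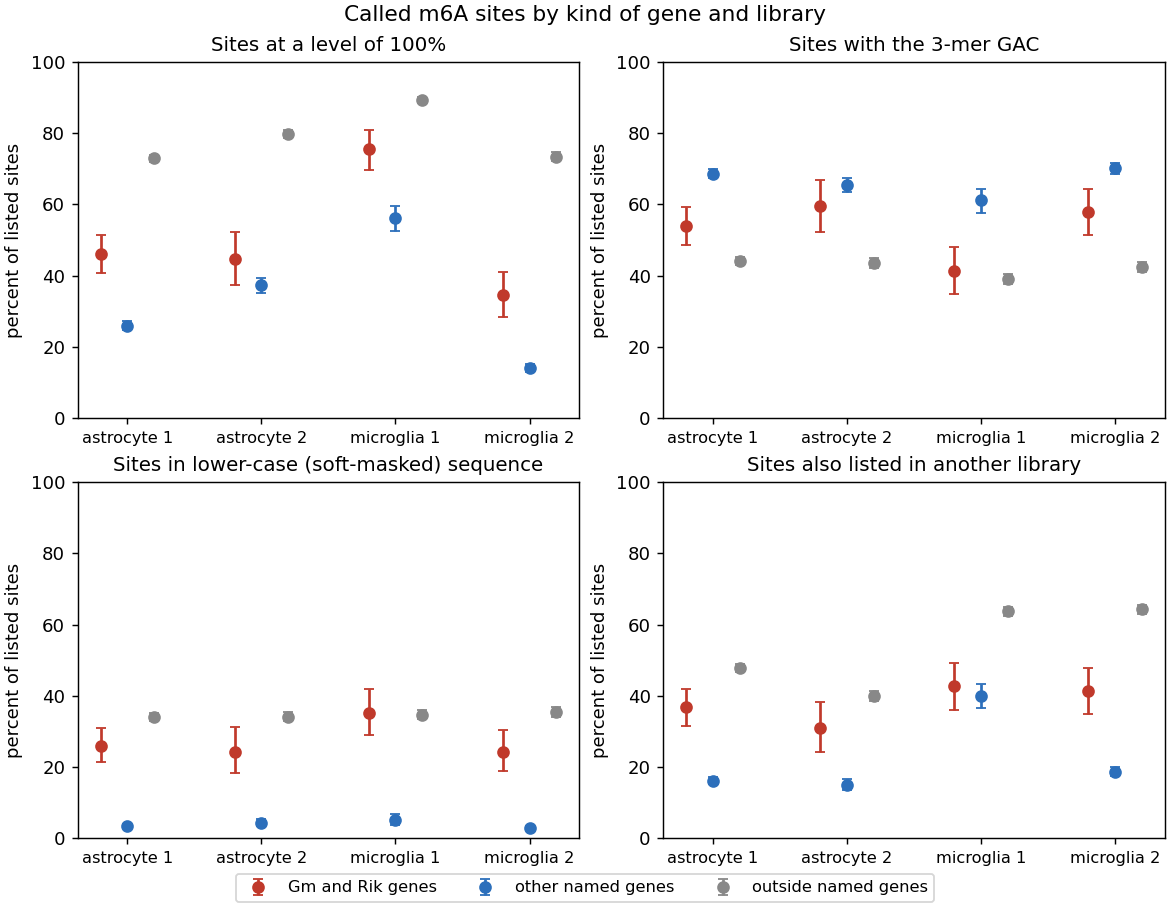
Percent of listed sites (y axis, 0 to 100%) in each of the 4 libraries (x axis) that stood at full level, had the 3-mer GAC, lay in lower-case sequence or were listed in another library; points are shares and bars exact 95% binomial intervals. Gm and Rik genes lie between other named genes and sites outside named genes in full level and GAC in all 4 libraries.

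Counted over distinct positions, 614 of the 760 were listed in 1 library, 81 in 2, 44 in 3 and 21 in all 4. Positions in all 4 made up 2.76% of Gm and Rik positions (exact 95% interval 1.72 to 4.19%), 0.630% of those in other named genes (0.484 to 0.807%) and 6.78% of those outside named genes. Of the 44 positions listed in exactly 3 libraries, 29 lacked astrocyte 2, 8 microglia 1, 5 microglia 2 and 2 astrocyte 1. Counted over positions of all levels, sharing between libraries followed neither the labels nor the marker sites, and the libraries differed in their number of Gm and Rik sites. Astrocyte 1 and microglia 1 shared 86 positions, 24.9% of the first and 37.4% of the second. Astrocyte 1 and microglia 2 shared 82 (23.7% and 34.9%), the microglia pair 58 (25.2% and 24.7%), and the astrocyte pair 43 (12.4% and 23.8%). Astrocyte 2 shared 38 with microglia 2 (21.0% and 16.2%) and 32 with microglia 1 (17.7% and 13.9%). Among positions below full level in both, astrocyte 1 and microglia 2, which held the astrocyte marker sites, shared the most, 30. Astrocyte 2 and microglia 1, with most of the microglia marker sites, shared the fewest, 9. By gene the same pairs were largest and smallest, at 101 and 36 shared Gm and Rik genes. The part of the number of sites in this was not tested.

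The levels differed by class of gene, and lncRNAs held most of the full-level sites. In lncRNAs with Gm or Rik symbols the share at full level was 59.7% of 201 sites in astrocyte 1, 64.0% of 75 in astrocyte 2, 89.3% of 159 in microglia 1 and 45.1% of 133 in microglia 2. In lncRNAs with other symbols it was 20.0% of 65, 21.7% of 23, 55.6% of 18 and 10.6% of 47. The mean difference between these kinds of lncRNA was 37.5 points, higher in 4 of 4 libraries. Within protein-coding genes the same comparison gave 11.1 points. The difference in lncRNAs was small in genes with many positions. Over all listings, lncRNAs with 1 position had 78.25% of Gm and Rik sites at full level against 46.9% of the others. In lncRNAs with 5 or more positions the shares were 6.94% and 3.85%. Of those with other symbols, 5 such genes gave 78 listings. A list of 50 lncRNAs with given names, among them Malat1, Neat1 and Meg3, had sites in 20 genes, and 17.1%, 18.8%, 25.0% and 3.70% of their sites were at full level in the 4 libraries in the order above. The list holds no Gm or Rik symbol, so its sites overlap those of the lncRNAs with other symbols and are not a separate comparison.

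Small RNAs formed the opposite end. The 54 Gm genes of this class had 20 to 24 sites a library, and their median level was 19.1% for astrocyte 1, 18.6% for astrocyte 2, 17.7% for microglia 1 and 20.2% for microglia 2. At full level stood 0, 1, 3 and 1 of these sites, in the same order. Small RNA genes with other symbols had medians of 16.7% to 18.4%, so the low level was shared by small RNAs of either kind of name. Lower-case sequence set them apart in part: it held 33.3% to 83.3% of the Gm small RNA sites and 0.00% to 11.8% of the others. Pseudogenes lay between, with medians of 46.2%, 75.0%, 83.3% and 60.0% in the 4 libraries.

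**Figure D2:**
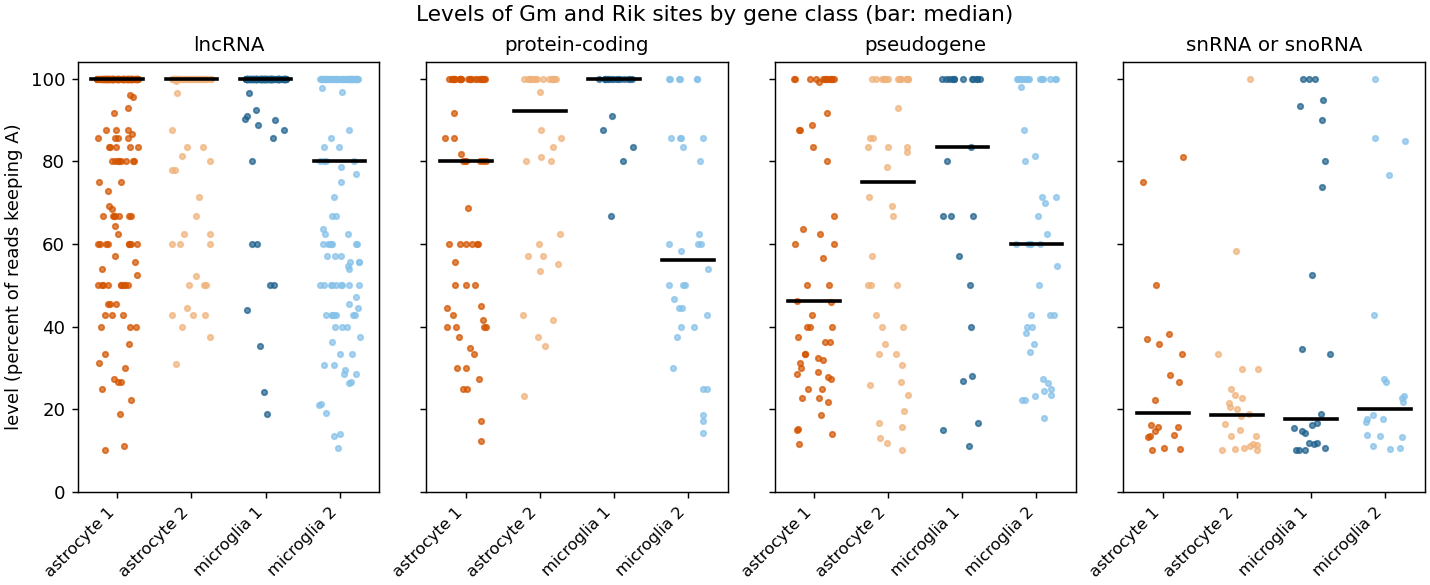
Level in percent of reads keeping A (y axis) of each Gm or Rik site in each library (x axis), in 4 panels by RefSeq gene class; each point is 1 site, spread sideways at random, and the black bar is the median. Most lncRNA sites lie at 100% in every library but microglia 2, and most snRNA or snoRNA sites below 30%, with medians of 17.7% to 20.2%.

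The recurrent positions show these ends gene by gene. Of 65 positions listed in 3 or 4 libraries, 37 stood at 100% in every library that listed them, 32 of these in lncRNAs. In all 4 libraries at 100% were, among 14 positions, those of the lncRNAs 9330104G04Rik (chromosome 7, position 16608633, minus strand), Gm10825 (chromosome 10, 22282509, plus), Gm26666 (chromosome 6, 145002142, plus), Gm31577 (chromosome 14, 7155031, plus), Gm32133 (chromosome 9, 95323991, minus) and Gm33389 (chromosome 13, 58228696, plus). The protein-coding genes 3830406C13Rik (chromosome 14, 10161745, minus) and 4933428G20Rik (chromosome 11, 97383846, minus) each had 1 such position as well. Positions are those of the deposited tables in mm39, whose gene annotation was not used here, so exon and intron were not determined. A level of 100% in each library leaves no spread to test.

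Close to full level were 5 further positions listed in all 4 libraries. The site of Gm26728, a lncRNA, at position 125468120 of chromosome 6 (plus strand, AAC) stood at 95.9% for astrocyte 1, 96.6% for astrocyte 2, 90.2% for microglia 1 and 96.8% for microglia 2. That is 94.9% ± 3.2 (SD, n = 4), with microglia 1 the lowest. In each of the other 4, a single library fell short of 100%. The lncRNA Gm16576 had 95.5% in astrocyte 1 (chromosome 15, 79638401), the lncRNA Gm40026 96.4% in microglia 1 (chromosome 11, 65541613), the pseudogene Gm5667 97.9% in microglia 2 (chromosome 13, 88696201) and the lncRNA Gm33190 99.4% in astrocyte 2 (chromosome 7, 51146372).

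The remaining 2 positions listed in all 4 libraries had low levels that varied little. In Gm26165, a snoRNA, position 144103629 of chromosome 2 (minus strand, GAC) stood at 15.8%, 21.5%, 18.8% and 17.7% in astrocyte 1, astrocyte 2, microglia 1 and microglia 2, or 18.4% ± 2.4 (SD, n = 4). In Gm22126, a pseudogene, position 35846239 of chromosome 13 (plus strand, GAC in lower case) stood at 22.8%, 25.9%, 26.9% and 24.5%, or 25.0% ± 1.8 (SD, n = 4). The libraries labelled astrocyte and microglia overlapped at each of them. Across 3 libraries the pseudogene Gm51850 (chromosome 1, 163003801) had 18.6%, 14.9% and 17.9% in astrocyte 1, microglia 1 and microglia 2. The snRNA Gm23692 (chromosome 16, 94230072) had 13.6%, 16.2% and 13.2% in the same libraries. Both genes were named after their values were seen.

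Not every small RNA was low. The snRNA Gm24405 (chromosome 1, 178464574, AAC in lower case), also named after its values were seen, stood at 94.8% in microglia 1, 81.1% in astrocyte 1 and 76.8% in microglia 2. The snRNA Gm23847 (chromosome 7, 129636854) ranged from 17.7% in microglia 2 and 22.2% in astrocyte 1 to 73.7% in microglia 1. The largest range of any position was in the lncRNA Gm3764 (chromosome 3, 88128572, AAC), at 45.5% in astrocyte 1, 100% in microglia 1 and 28.6% in microglia 2. In these 3 snRNA and lncRNA genes microglia 1 was the highest library. Gm10258 had 50% in astrocyte 1 and 100% in microglia 1 (chromosome 3, 30328527), the pseudogene Gm21370 37.5% in astrocyte 1 and 81.2% in microglia 2 (chromosome 13, 120476646) and the protein-coding gene Gm266 100% in astrocyte 1 and 58.3% in microglia 2 (chromosome 12, 111451322).

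Between pairs of libraries, levels at shared Gm and Rik positions below 100% in both had a median absolute difference of 2.58 to 9.70 points. Pearson's r across these positions was 0.81 over 30 positions for astrocyte 1 with microglia 2 and 0.98 over 12 for astrocyte 2 with microglia 2, and the other 4 pairs lay between. Positions are not independent replicates, and each table lists only levels of 10.0% or more.

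**Figure D3:**
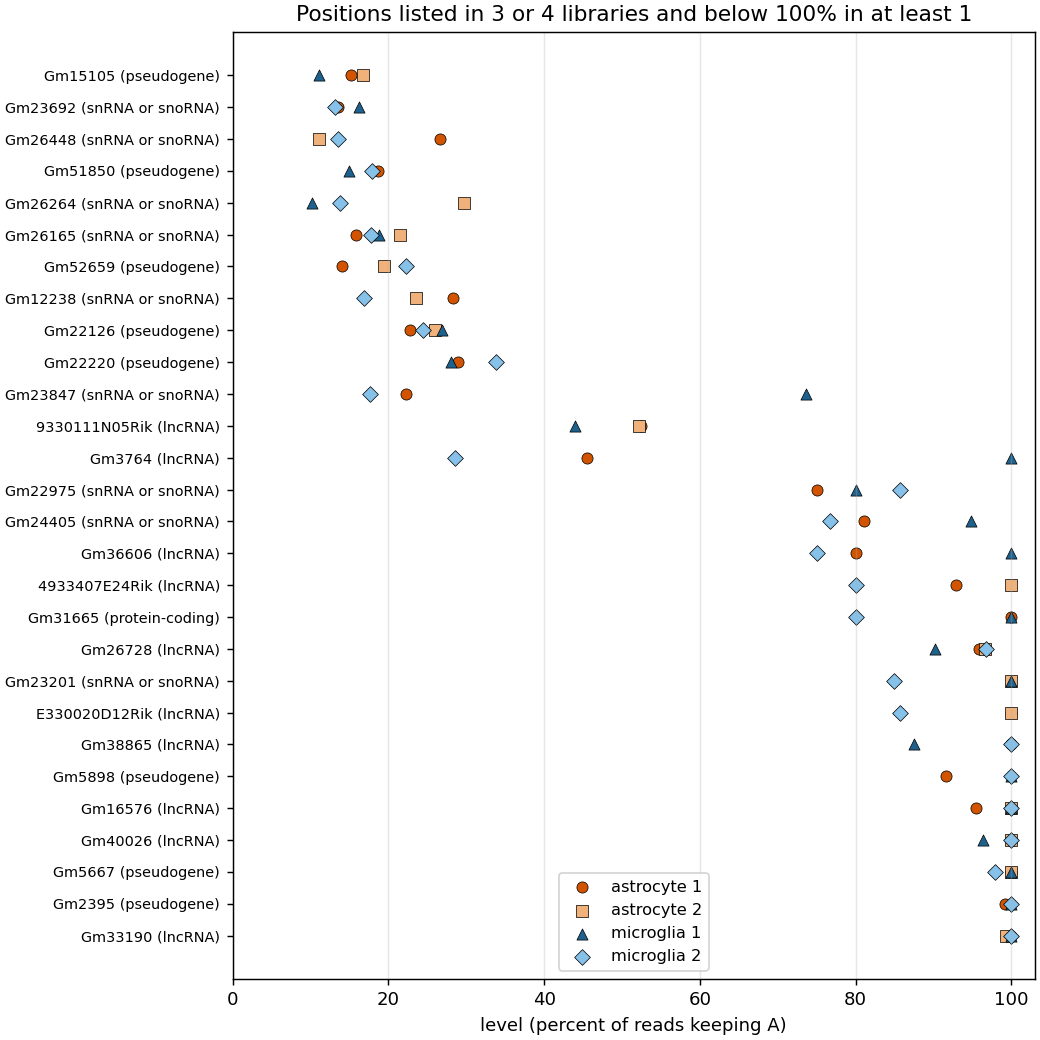
Level in percent of reads keeping A (x axis) at the 28 Gm and Rik positions (rows, named by gene and class) that were listed in 3 or 4 libraries and stood below 100% in at least 1; each symbol is 1 library. Small RNAs and pseudogenes lie at both ends, with mean levels of 18.4% at Gm26165 and 25.0% at Gm22126, but 95% at Gm23201 and 99.5% at Gm5667, and most lncRNAs lie at the upper end.

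Most Gm and Rik genes had a single position: 488 of 574 had 1, 73 had 2 to 4 and 13 had 5 or more. The number of sites per listed gene was 1.21, 1.16, 1.04 and 1.26 in astrocyte 1, astrocyte 2, microglia 1 and microglia 2, against 1.55, 1.39, 1.16 and 1.46 in other named genes. The mean difference was -0.224 ± 0.093 (SD, n = 4 libraries; exact sign-flip permutation p = 0.13, adjusted 0.15). By class it was -0.620 in lncRNAs, lower in 4 of 4 libraries, but -0.064 in protein-coding genes, where 1 library went the other way, and -0.019 in pseudogenes, where 2 did. Genes with 1 position and genes with many differed in the kind of site. Over all listings, 59.4% of sites in genes with 1 position stood at full level and 24.4% of these positions were listed in 2 or more libraries. In genes with 5 or more positions 14.3% of sites stood at full level and 4.72% of 106 positions recurred. Other named genes went from 40.0% to 12.9% in full level over the same step, while their recurring positions went from 10.7% to 9.0%. The number of positions was counted from the same listings, and these shares are given as a description with no test.

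The lncRNAs with the most positions had intermediate levels at bases that seldom recurred. Gm15521 had 12 positions over 75691 bases of chromosome 9 (29507646 to 29583337, minus strand), with 4 sites in astrocyte 1 at 30.0% to 60.0%, 0 in astrocyte 2, 1 in microglia 1 at 50% and 7 in microglia 2 at 28.6% to 60.0%. Gm39752 had 12 positions on chromosome 2 (4227053 to 4275316, plus strand), 5 in astrocyte 1 at 35.7% to 80.0% and 7 in microglia 2 at 21.2% to 55.6%, with none in the others. None of the positions of these genes was listed in a second library.

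Gm33649 had 11 positions on chromosome 19 (22457743 to 22580417, plus strand), 3 in astrocyte 1 and 8 in microglia 2, at 45.5% to 80.0%. Gm6145 had 11 on chromosome 14 (105858925 to 105879513, minus strand), 5 in astrocyte 1, 1 in microglia 1 and 6 in microglia 2, of which 1 position recurred. Gm3764 had 6 (chromosome 3), 5 in astrocyte 1, 1 in microglia 1 and 2 in microglia 2. These 5 lncRNAs had sites chiefly in astrocyte 1 and microglia 2 and none in astrocyte 2. Astrocyte 1 and microglia 2 also listed the most sites in named genes of any kind, 4790 and 3782. Astrocyte 2 listed 2348 and microglia 1 listed 1066. Astrocyte 1 and microglia 2 further held the astrocyte marker sites (16 and 13 of 18 genes) and the oligodendrocyte marker sites (7 of 8 genes in each). The part of cell makeup or of the number of sites in this was not tested.

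Gm32849 showed the other pattern, with 12 positions on chromosome 7 (48672047 to 48747089, plus strand). It had 7 sites in astrocyte 2 at 37.5% to 71.4%, 3 in microglia 1 at 60.0% to 100%, 2 in astrocyte 1 and 0 in microglia 2. The protein-coding gene 1700017B05Rik had 9 positions on chromosome 9, 6 in astrocyte 2 at 42.9% to 100% and 3 in microglia 1 at 83.3% to 100%, and none in astrocyte 1 or microglia 2. Astrocyte 2 and microglia 1 were the libraries with most microglia marker sites (14 and 13 of 18 genes); this too was not tested.

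Among the other protein-coding genes, 2610507B11Rik, also known as Kiaa0100, had 2 sites each in the libraries labelled astrocyte and 3 in microglia 2. 4930402H24Rik had 4 in astrocyte 1 at 27.3% to 42.9% and 3 in microglia 2 at 18.5% to 30.0%. 2510039O18Rik, also known as Kiaa2013, had 3 in astrocyte 1 at 80.0% to 100% and 2 in astrocyte 2 at 100%. In the 76 protein-coding Gm and Rik genes as a group, the share at full level was 39.1%, 47.1%, 75.0% and 17.6% in the 4 libraries, against 25.8%, 37.7%, 56.9% and 13.9% in other protein-coding genes.

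**Figure D4:**
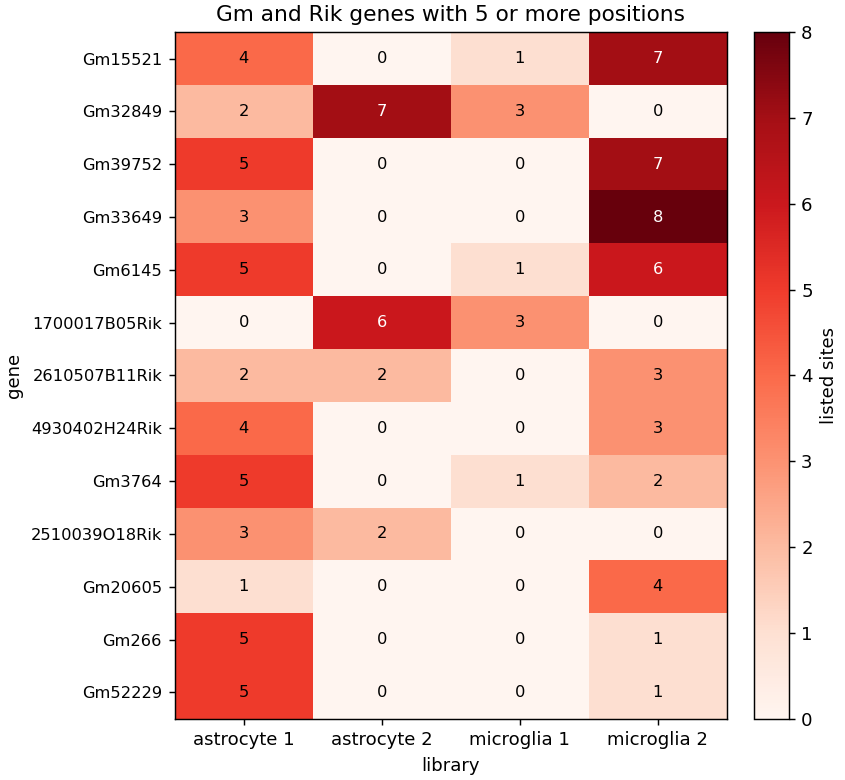
Number of listed sites (colour and printed count) in each library (x axis) for the 13 Gm and Rik genes with 5 or more positions (y axis). Gm15521, Gm39752, Gm33649 and Gm6145 have most sites in astrocyte 1 and microglia 2, and Gm32849 and 1700017B05Rik in astrocyte 2 and microglia 1.

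Gm and Rik symbols were alike in some measures and apart in others. Full level was 46.6%, 41.8%, 74.9% and 36.0% of Gm sites and 43.9%, 55.0%, 79.5% and 28.6% of Rik sites in the 4 libraries, with no common direction. The plus strand held 63.6%, 67.4%, 62.3% and 64.0% of Gm sites and 45.1%, 42.5%, 56.4% and 44.9% of Rik sites, a lower share of Rik sites in each library. Other named genes stood at 50.4% to 51.6% and sites outside named genes at 58.4% to 61.5%. Strand was looked at only once the data were known, and is given with no test.

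The cell types were compared as labelled, with 2 libraries of each. The share of named-gene sites in Gm and Rik genes was 7.47% on average in astrocytes and 13.9% in microglia, or -6.43 points for astrocytes minus microglia (two-sided exact permutation p = 1). The mean level was 72.6% and 77.2%, or -4.55 points (exact permutation p = 1), and the share at full level was 45.4% and 55.1%, or -9.71 points (exact permutation p = 1). With 2 libraries a side the smallest p such a test allows is 0.33. Each adjusted p over the 3 was 1. All 3 differences turned on microglia 1 and became 1.25, 6.48 and 10.9 points without it. In the replicate 1 libraries alone they were -14.4, -14.4 and -29.7 points, and in the replicate 2 libraries alone, whose markers go against their labels, 1.5, 5.26 and 10.3 points. Each difference between the labelled types was smaller than the difference between the 2 microglia libraries.

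At single positions the types were compared over the sites listed in all 4 libraries, with limma on log2 odds of the level, adjusted over all 354 sites of any name that could be tested. It called 0 sites (0%) at an adjusted p under 0.05, and 16 (4.52%) had an unadjusted p under 0.05. Of the 21 Gm and Rik positions 6 could be tested, and 0 of the 6 had an unadjusted p under 0.05. The other 15 were tied within each type once levels were limited to 1% and 99%. Gm33190, at 99.4% in astrocyte 2, was tied only through that limit. The lowest adjusted p was 0.679, shared by Gm16576, at a log2 odds difference of -1.12 ± 0.99 (SE), and Gm40026, at 0.94 ± 0.88 (SE). For Gm26165 the difference was 0.02 ± 0.59 and for Gm22126 -0.11 ± 0.57 (SE, log2 odds; limma adjusted p = 0.985 and 0.933). None of the 6 had astrocyte and microglia levels that did not overlap, a state met by 17.5% of all sites tested. In Gm16576, Gm40026 and Gm5667 a library of each type stood at 100%, so their levels could not be apart. With 6 positions no contrast with that share can be drawn. By the marker sites, each labelled type paired a library rich in astrocyte marker sites with a library rich in microglia marker sites. A difference between these cell types would add to the spread within a labelled type. Neither the 0 calls nor the overlap therefore shows equal levels in astrocytes and microglia.

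Positions listed in both libraries of a type and neither of the other were few. They numbered 9 of 760 for astrocytes (1.18%), against 0.985% of all listed positions, and 6 for microglia (0.789%), against 1.11%. For astrocytes they included the snRNA Gm23143 (chromosome 4, 117059839) at 10.2% and 16.5%, the pseudogenes Gm9079 (chromosome 10, 121915010) at 50% and 71.4% and Gm46077 (chromosome 1, 32291822) at 56.5% and 83.3%, and the protein-coding genes 0610012G03Rik (chromosome 16, 31766973) at 91.7% and 81.0% and 2200002D01Rik (chromosome 7, 28947107) at 80.0% and 100%. For microglia they included the snRNA Gm24552 (chromosome 7, 90892226) at 93.3% and 100%, the protein-coding gene Gm4841 at 90.9% and 83.3%, and the lncRNAs Gm16150 (chromosome 1, 38271394), Gm31290 (chromosome 2, 9942373) and 2010320O07Rik at 100% in both. With the marker sites of the replicate 2 libraries against their labels, these sets cannot be read as sites of a cell type.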

How the data were processed

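GLORI libraries from sorted mouse cortex were analysed from 1 deposited site table each. The authors deposited a level per site as a fraction from 0 to 1, shown here as a percent, with no coverage. GLORI-tools made the calls, per the labels' design text; the submitters' processing notes name STAR and the build mm39. Thresholds for calling are not given in the sources used. Positions are the 1-based end column. Lower case in the deposited 3-mer was read as soft-masking, since no genome was used.

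Gene names matched ^Gm[0-9]+$ or ended in Rik; classes came from RefSeq (GRCm38.p6), used for names and classes only. Within-library differences were tested by exact sign-flip permutation and types by exact permutation (Python 3.11.15). Levels were tested with limma 3.58.1 in R 4.3.3 on log2 odds limited to 1% and 99%, without sites tied within both types; the fit was tested on simulated data. No count test or coverage minimum was possible. P-values measure the spread between libraries, which may be technical.

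The genes named are those with positions in 3 or 4 libraries (up to 15), the 10 with most positions, up to 5 positions listed in a single type, and the 5 largest ranges. The members and lists were chosen with earlier results of these data known.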

Additional observations from a re-analysis of the deposited data

Results flagged for a closer look

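Over all 4 libraries, 4 values lay far from the rest (Dixon's criterion at 95%, which chance meets in about 1 of 20 sets; 13 sets were examined, and they mix the labelled types). In astrocyte 2 the excess of Gm and Rik sites at full level was 7.46 points and the difference in mean level was -1.15 points, both below the other libraries. In microglia 1 Gm and Rik genes held 21.6% of named-gene sites, and 35.2% of Gm and Rik sites lay in lower-case sequence, both above the other libraries.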

How the results depend on the processing

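Of 102 alternatives to the 6 within-library comparisons, 99 kept the sign of the mean difference. The exceptions were GAC with pseudogenes only (6.32 points), lower-case sequence with pseudogenes only (-1.47 points) and mean level with sites below full level only (-5.0 points). The 102 include settings that only left libraries out, where the values of the single libraries allowed no change of sign. In some alternatives that kept the sign, a library went the other way. Restrictions to a gene class, a 3-mer, upper-case sequence, or sites at or below full level were chosen after seeing the data, as were the replicate 1 libraries alone within libraries. Without 1 library, the differences ranged from 15.7 to 20.0 points in full level, from -15.6 to -10.9 in GAC and from 4.33 to 7.32 in mean level. They ranged from 21.3 to 24.7 points in lower-case sequence and from -0.258 to -0.184 sites per gene. In sharing they ranged from 13.05 to 19.7 points, but a site listed elsewhere only in the left-out library still counted as shared. Sharing among the remaining libraries alone was not measured. Between the types, without 1 library the share in Gm and Rik genes ranged from -14.1 to 1.25 points, the mean level from -15.6 to 6.48 and the share at full level from -30.3 to 10.9; each turned positive without microglia replicate 1. The mean level also turned with Rik names only (0.234 points) and with lncRNA genes only (0.290 points); the cause was not tested. With the replicate block the 3 differences were again -6.43, -4.55 and -9.71 points. This follows from arithmetic, since each number has 1 library of each type, and is no check. Limma called 0 sites with the block and in the other settings that kept all libraries, with 8 to 19 at an unadjusted p under 0.05. The labels do not say that a number marks a shared animal or day. Deviations of same-numbered libraries from the mean of their labelled type had r = -0.07. With the replicate 2 markers against their labels, cell type enters these deviations as well. The r therefore cannot tell whether same-numbered libraries share an effect. Alternatives on coverage were not run, since read depth is unknown.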
